A study of Mus musculus with 60 samples.

Results

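The respiratory chain was described gene by gene in organoids grown from mouse duodenum, with the subunits encoded in mitochondrial DNA set beside those encoded in the nucleus. Members were chosen by symbol: the mitochondrial genes of complexes I, III, IV and V, and nuclear symbols of the Nduf, Sdh, Uqcr, Cox and Atp5 subunit families, without pseudogenes. Of 24905 genes with values in every comparison, 94 were members, 13 of them mitochondrial and 81 nuclear. A further 2 matching symbols, Cox4i2 and Cox8c, had no values and were not analysed here. The nuclear members comprised 37 named for complex I, 4 for complex II, 8 for complex III, 16 for complex IV and 16 for complex V, the ATP synthase. Ndufa4 was counted under complex I by its name, although it is known as a complex IV subunit.

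The series concerns the safety of degrading the kinases CDK2 and CDK5 in adult mice, and measured polyadenylated RNA by 3′ tag sequencing in 60 samples of organoids grown in Matrigel with IntestiCult medium, 20 groups of 3. In the degron arm, organoids labelled WT dTAG, HOM CDK2-dTAG and HOM CDK5-dTAG received DMSO or 250 nM dTAG-13, a small molecule that brings a tagged protein to a ubiquitin ligase, for 6 or 24 h. In the knockout arm, organoids labelled WT cKO and HOM CDK2 cKO received DMSO or 1 uM 4-hydroxytamoxifen (4-OHT) for 24 or 48 h. The labels do not say which Cre, if any, the WT cKO organoids carried, nor whether the 3 replicates were separate animals or cultures. A p-value may therefore rest on technical replicates. The authors' deposited table held 13 comparisons, 10 of a treatment with DMSO and 3 of a later with an earlier time in DMSO, and the depth of each sample is unknown. The treatment and time comparisons of 1 genotype share DMSO libraries, and no per-sample values were analysed here.

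The table holds no levels, so the labelled tissue was checked through precision, using the standard error implied by each log2 fold change and its p-value. A gene was called well measured where the median of this error over the 13 comparisons was at most 0.5. That held for 23 of 28 enterocyte markers and 17 of 18 crypt stem markers, against 2 of 13 fibroblast and 1 of 10 immune markers with values. It also held for all 13 mitochondrial and 76 of 81 nuclear members; the 5 others were Cox6a2, Cox6b2, Cox7b2, Cox8b and Ndufa4l2. In the authors' deposited table Cdk2 stood at -0.35 and -0.64 on the log2 scale after 24 and 48 h of 4-OHT in CDK2-cKO organoids, and at 0.26 and -0.53 in WT-cKO organoids. The same table gave Cdk5 at -0.39 and -0.30 in CDK5-dTAG organoids after 6 and 24 h of dTAG-13. None was called, and a 3′ tag outside a deleted exon, or a transcript whose protein is degraded, checks neither label.

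The respiratory chain passes electrons from NADH and succinate to oxygen through complexes I to IV and pumps protons across the inner mitochondrial membrane, and complex V uses the return flow to make ATP. All complexes other than complex II combine subunits from both genomes. Mitochondrial genes are transcribed as long precursors from both strands of a circular genome and cut apart, mostly at the tRNAs between them, and in mammals most of the resulting mRNAs then receive a short poly(A) tail. Nuclear subunits are made from separate genes, translated in the cytosol and imported. In the intestine, absorptive enterocytes and crypt stem cells differ in how much they rely on this pathway.

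Mitochondrial transcripts were higher after 24 h than after 6 h of culture in DMSO, in both genotypes for which the comparison was deposited, while the nuclear subunits of the same complexes stood near 0. In the authors' deposited table the 13 mitochondrial genes had a median log2 fold change of 0.65 in WT-dTAG and 0.74 in CDK2-dTAG organoids, with 13 of 13 positive in each. The 81 nuclear members had medians of 0.07 and 0.05, with 60 and 56 positive. The 9526 well measured genes of the whole table had medians of -0.00 and -0.02. Positive values made up 66.9% and 66.8% of all genes, and 49.8% and 47.8% of the well measured ones. A member was called where its FDR p, which the authors' deposited table gives over all genes, was under 0.05. In WT-dTAG organoids 3 members rose, where 0.0803% of all genes were called and 0.0763% were called higher. In CDK2-dTAG organoids 4 members rose, where 0.0361% of all genes were called and 0.0321% were called higher. These were mitochondrial genes, and no nuclear member was called.

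mt-Co1, which encodes the catalytic subunit of cytochrome c oxidase (complex IV), rose most in both genotypes. The authors' deposited table gave mt-Co1 a log2 fold change of 1.24 in WT-dTAG organoids (2.36-fold, FDR p = 1.60e-06) and 1.40 in CDK2-dTAG organoids (2.64-fold, FDR p = 1.94e-06). The 95% intervals implied by its p-values were 0.86 to 1.62 and 0.98 to 1.82. mt-Nd5, a proton-pumping subunit at the tip of the membrane arm of complex I, rose by 1.04 and 1.31 in the authors' deposited table (FDR p = 0.00469 and 4.34e-04). mt-Atp6, the ATP synthase subunit that forms the proton path with the rotating ring, rose by 0.88 and 0.95 in the authors' deposited table (FDR p = 0.0126 and 0.0438). mt-Nd6, the complex I subunit encoded on the opposite strand from the other mitochondrial protein genes, stood at 0.71 in WT-dTAG organoids (FDR p = 0.107) and rose by 1.14 in CDK2-dTAG organoids (FDR p = 3.81e-04) in the authors' deposited table. Rises of the called genes ran from 1.85-fold for mt-Atp6 in WT-dTAG to 2.64-fold for mt-Co1 in CDK2-dTAG organoids.

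The mitochondrial genes differed among themselves as well as from the nuclear ones. At the low end the authors' deposited table gave mt-Nd4, a pumping subunit of complex I, 0.25 (p = 0.213) in WT-dTAG and 0.56 (p = 0.0111) in CDK2-dTAG organoids. mt-Nd3, a small complex I subunit at the junction of its arms, stood at 0.28 (p = 0.281) and 0.49 (p = 0.0970) in the authors' deposited table. mt-Cytb, the haem-bearing core of complex III, stood at 0.36 and 0.62, and the complex IV subunits mt-Co2 and mt-Co3 at 0.52 and 0.71 in WT-dTAG and 0.78 and 0.72 in CDK2-dTAG organoids in the authors' deposited table. The spread was therefore from 1.19-fold to 2.36-fold in WT-dTAG and from 1.40-fold to 2.64-fold in CDK2-dTAG organoids. Overlapping neighbours, mt-Nd4l with mt-Nd4 and mt-Atp8 with mt-Atp6, need not be separate measurements. mt-Co1 and mt-Nd5 came first and second in both genotypes, and mt-Nd3 and mt-Nd4 took the last 2 places in both. Across the 13 genes the values of the 2 genotypes, which share no library, had a Pearson r of 0.92 and a Spearman rho of 0.92. Both are given as a description over genes most of which share a precursor. Neighbours in the order, such as mt-Nd4l (0.74), mt-Co3 (0.71), mt-Nd6 (0.71) and mt-Atp8 (0.65) in WT-dTAG organoids in the authors' deposited table, lay closer together than their implied standard errors.

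**Figure D1:**
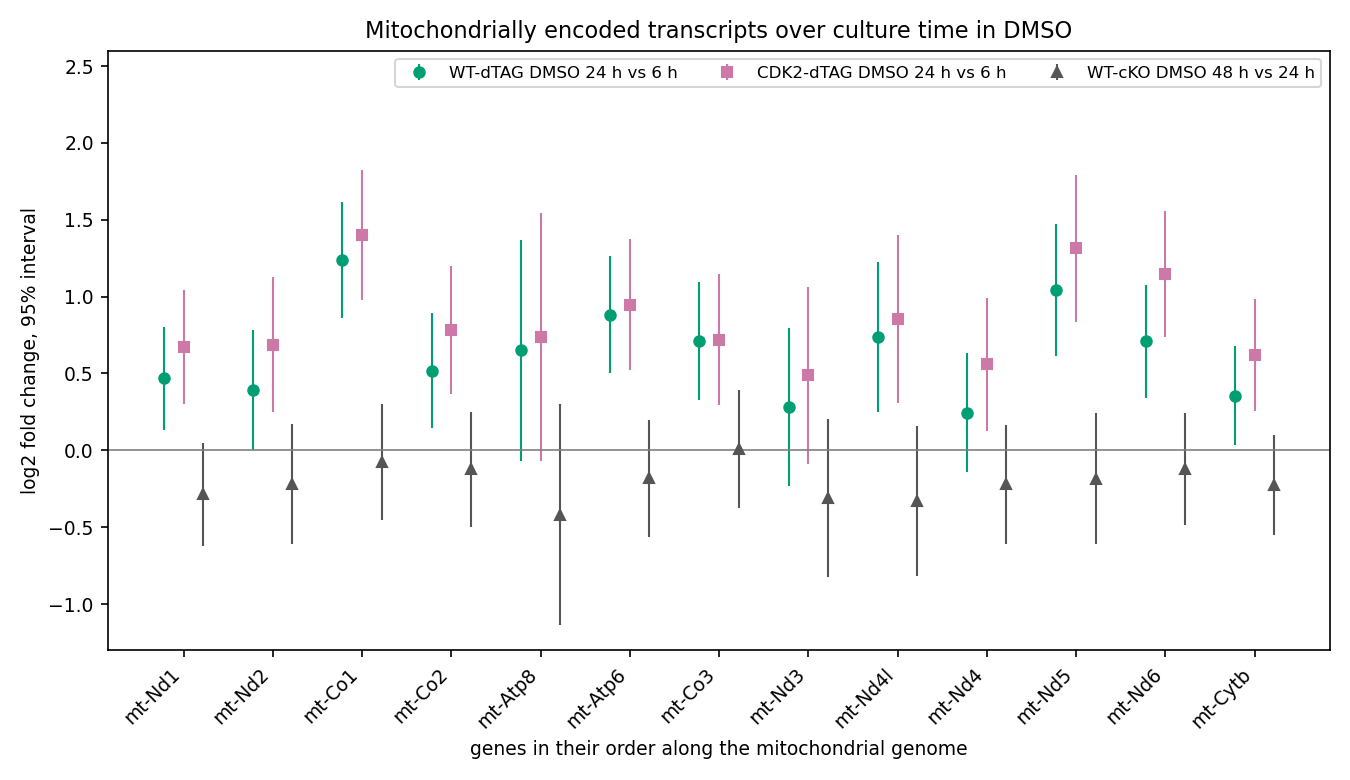
Log2 fold change of the 13 mitochondrially encoded mRNAs (y axis, deposited value with its implied 95% interval) in their order along the mitochondrial genome (x axis), for 24 h against 6 h of DMSO in WT-dTAG (circles) and CDK2-dTAG (squares) organoids and for 48 h against 24 h of DMSO in WT-cKO organoids (triangles). mt-Co1 and mt-Nd5 are highest in both early comparisons, at 1.24 and 1.04 and at 1.40 and 1.31, and 12 of 13 triangles lie below 0.

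At an unadjusted p under 0.05, 10 of 13 mitochondrial and 2 of 81 nuclear members passed in WT-dTAG organoids, against 3.28% of all genes and 2.14% in the higher direction. In CDK2-dTAG organoids 11 of 13 and 1 of 81 passed, against 2.72% and 1.54%. All of these members were higher at 24 h. The difference between the genotypes, CDK2-dTAG minus WT-dTAG, was positive for 13 of 13 mitochondrial genes with a median of 0.21 on the log2 scale. None was called after Benjamini-Hochberg adjustment over 24905 genes, and 0 of 94 members reached an unadjusted p under 0.05, against 0.984% of all genes. Among the mitochondrial genes mt-Nd6 had the largest difference, 0.44 (95% interval -0.11 to 0.99). Some nuclear members had larger ones with wider intervals, such as Sdhd at 0.58 (-0.67 to 1.83).

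The annotated 3′ ends of these transcripts are shown for the 4 genes called in either genotype and for the pair with the lowest values. Tags of this assay start near the poly(A) tail. The annotated ends reach no further than the stop codon and need not mark where the tags start. Each is the last 60 bases of the GENCODE M21 transcript on GRCm38, 5′ to 3′, with the stop codon, or the part of it that the gene encodes, in capitals.
mt-Co1: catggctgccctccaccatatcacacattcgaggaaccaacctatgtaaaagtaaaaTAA
mt-Nd5: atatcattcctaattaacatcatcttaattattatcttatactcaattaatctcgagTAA
mt-Atp6: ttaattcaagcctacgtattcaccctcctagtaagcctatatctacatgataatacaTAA
mt-Nd6: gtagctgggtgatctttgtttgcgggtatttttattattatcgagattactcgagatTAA
mt-Nd4: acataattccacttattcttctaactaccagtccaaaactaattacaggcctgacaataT
mt-Nd3: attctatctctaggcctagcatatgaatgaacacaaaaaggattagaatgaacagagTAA
These stretches lie at chrM:6813-6872 for mt-Co1, chrM:13506-13565 for mt-Nd5, chrM:8548-8607 for mt-Atp6, chrM:11485-11544 for mt-Nd4 and chrM:9747-9806 for mt-Nd3 on the plus strand, and at chrM:13552-13611 for mt-Nd6 on the minus strand. All are coding sequence up to the stop codon.

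mt-Nd4, like mt-Cytb and mt-Co3, ends in a lone T, so that its stop codon is made only when the poly(A) tail supplies the remaining bases. The 3 genes of this kind stood between 0.25 and 0.71 in WT-dTAG and between 0.56 and 0.72 in CDK2-dTAG organoids in the authors' deposited table. The 10 genes with a whole stop codon stood between 0.28 and 1.24 and between 0.49 and 1.40. The ranges overlapped in both genotypes. The annotated ends of mt-Nd5 and mt-Nd6 overlap by 14 bases on opposite strands, visible above as the run ctcgag near both stop codons. The overlap of the mature transcripts was not analysed here. Whether the counting used strand is not given in the sources used here. mt-Atp8 and mt-Atp6 overlap by 43 bases and mt-Nd4l and mt-Nd4 by 7 on the same strand, so tags near the ends of mt-Atp8 and mt-Nd4l cannot be assigned to 1 gene from the sequence alone. In human cells the ND6 mRNA is known to lack a poly(A) tail, and mt-Nd6 was well measured here.

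Both mitochondrial ribosomal RNAs, which are no members, stood close to the median of the mRNAs in the same comparisons. The authors' deposited table gave mt-Rnr1 0.63 and mt-Rnr2 0.64 in WT-dTAG and 0.73 and 0.68 in CDK2-dTAG organoids (FDR p from 0.556 to 0.991). A list of small structural nuclear RNAs was written after the values were seen, so its values are description only and lend no support. Its 10 well measured members had medians of 0.99 and 0.98 in WT-dTAG and CDK2-dTAG organoids. Of these, Rn7sk, the RNA that holds the elongation factor P-TEFb inactive, rose by 2.04 (FDR p = 6.96e-06) and 1.84 (FDR p = 0.00341) in the authors' deposited table. Scarna2, a guide RNA of Cajal bodies, rose 4.27-fold (FDR p = 0.0227) in WT-dTAG organoids and stood at 2.83-fold (FDR p = 0.564) in CDK2-dTAG organoids in the authors' deposited table. Most of these structural RNAs are known to carry no poly(A) tail, and their part in the mitochondrial result was not tested. Crypt stem markers had medians of -0.21 and -0.19 and enterocyte markers of 0.04 and -0.04, whose part was not tested either.

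The same time step could be read in the dTAG-13 libraries, by adding the 24 h and subtracting the 6 h treatment effect from the DMSO time effect, which leaves dTAG-13 at 24 h against dTAG-13 at 6 h. On this scale the mitochondrial median was 0.52 in WT-dTAG organoids, with 13 of 13 positive, and 0.59 in CDK2-dTAG organoids, with 12 of 13 positive. The nuclear medians were 0.08 and -0.08. mt-Co1 again had the highest value in both, 1.29 and 1.30, and mt-Nd5 stood at 1.07 and 0.98. mt-Nd3 was the exception in CDK2-dTAG organoids, at -0.01. The time effect was thus present in libraries that share no sample with the DMSO comparison, without an error or test of its own.

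Between 24 and 48 h the direction differed. In WT-cKO organoids in DMSO the mitochondrial median at 48 h against 24 h was -0.22 in the authors' deposited table, with 12 of 13 genes negative. The nuclear median was 0.02 with 48 of 81 positive. Beside this, 37.8% of all genes and 48.8% of well measured genes were positive. The mitochondrial values ran from -0.42 for mt-Atp8, a small peripheral ATP synthase subunit, to 0.01 for mt-Co3. In the authors' deposited table mt-Co1, highest in the earlier interval, stood at -0.08 and mt-Nd5 at -0.18. No member was called, where 0% of all genes were, nor did any pass an unadjusted p under 0.05, against 1.42% of all genes. Enterocyte markers had a median of 0.29 in this comparison, with 25 of 28 positive, and the well measured small structural RNAs of -0.21, with 10 of 10 negative; their part was not tested. Genotype and time step differ between the arms and cannot be told apart.

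**Figure D2:**
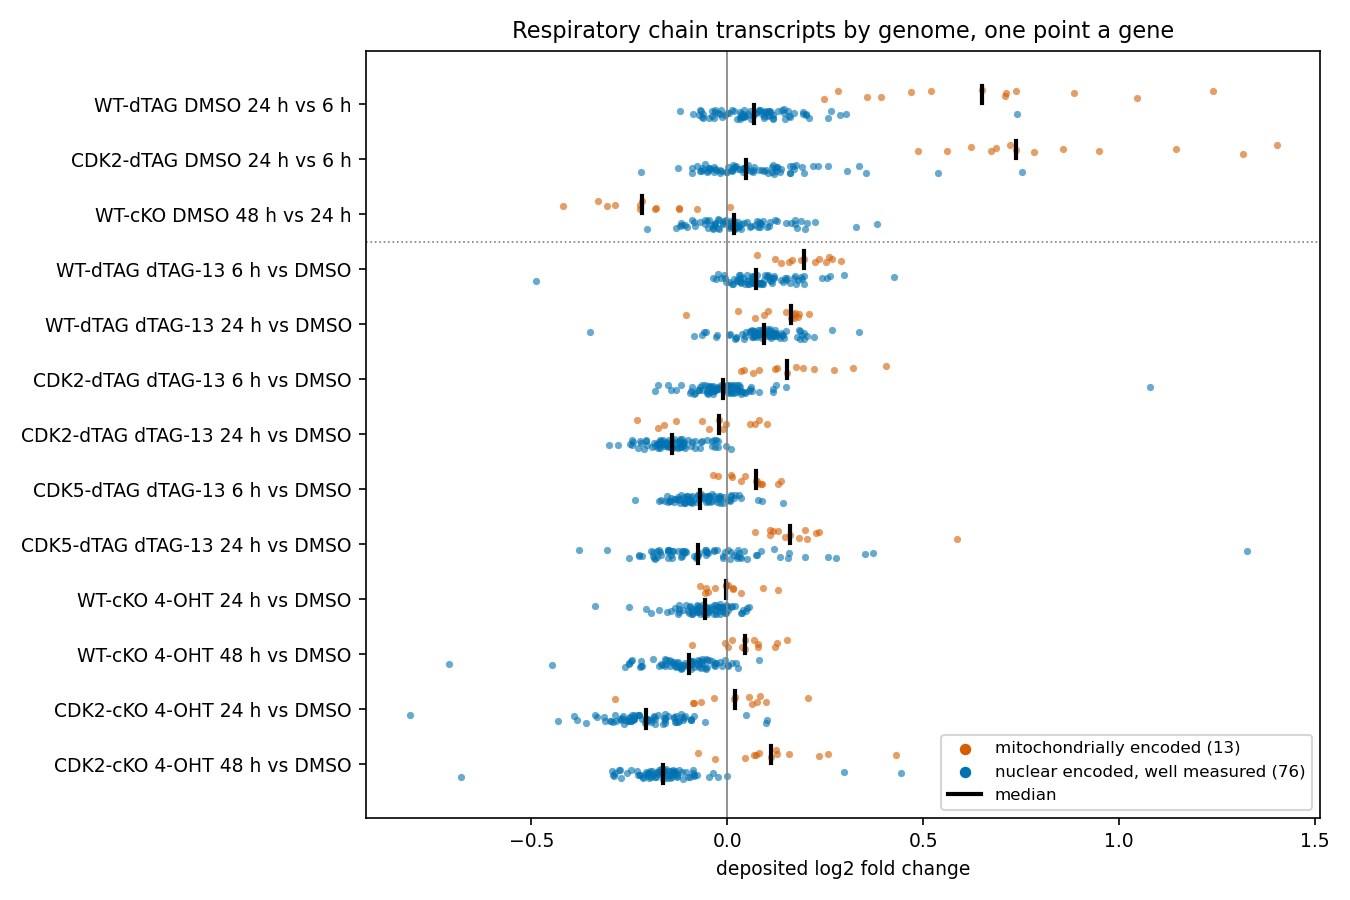
Deposited log2 fold change (x axis) of each mitochondrially encoded (orange, 13) and well measured nuclear encoded (blue, 76) member in the 13 comparisons (y axis), 1 point a gene, with the median as a black bar. The genomes stand far apart in the 2 comparisons of 24 h with 6 h of DMSO, with medians of 0.65 and 0.74 for the mitochondrial genes, and in the treatment comparisons below the dotted line the points of all genes other than Sdhd, Cox7a1 and mt-Nd3 lie within 0.5 of 0.

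Across the 10 treatment comparisons 0 members were called, and the smallest FDR p of a well measured member was 0.990 in the authors' deposited table. Values of the mitochondrial genes ran from -0.29 (mt-Atp8) to 0.59 (mt-Nd3). Those of the well measured nuclear members ran from -0.43 (Ndufb8) to 0.37 (Ndufa1), both accessory subunits of complex I, once Sdhd and Cox7a1 are set aside. The median implied standard error of both genomes lay between 0.196 and 0.222 in each comparison, and a change of a single gene within such an error was not detectable. Changes well above it could also go uncalled. For 24 h against 6 h of DMSO in WT-dTAG organoids, mt-Co3 at 0.71 had an FDR p of 0.151 in the authors' deposited table. The smallest change of a called member in any comparison was 0.88, for mt-Atp6 there. Of all genes, between 0.799% and 3.28% had an unadjusted p under 0.05 in a comparison. Among well measured members alone, 0 passed in WT-dTAG organoids at 6 h of dTAG-13 (against 0.945% of well measured genes) and 0 in WT-cKO organoids at 24 and 48 h of 4-OHT (1.43% and 3.26%), while 1 passed in CDK2-cKO organoids at 48 h (4.15%).

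In WT-dTAG organoids, the control genotype of the degron arm, dTAG-13 left both genomes slightly above 0. In the authors' deposited table the mitochondrial median was 0.20 at 6 h and 0.16 at 24 h, with 13 and 12 of 13 positive. The nuclear median was 0.07 and 0.09, with 71 and 73 of 81 positive. At these times 64.9% and 64.7% of all genes were positive, and 49.9% and 51.7% of well measured genes. The largest mitochondrial values at 6 h were 0.29 for mt-Nd4l and 0.27 for mt-Atp8, and at 24 h mt-Atp6 alone was negative, at -0.10. Among well measured nuclear members the 3 highest at 6 h were Cox7a1 (0.42), the complex I subunit Ndufb7 (0.30) and the complex III core subunit Uqcrc1 (0.26). The 3 lowest were Sdhd (-0.49), Ndufa7 (-0.04) and Ndufa4 (-0.03) in the authors' deposited table. After 24 h the range ended at Cox7a1 (0.34), Ndufb3 (0.27) and Ndufa13 (0.22), and Sdhd (-0.35), Ndufs1 (-0.08) and Sdhc (-0.06). With 0% of all genes called, no member passed at either time. At an unadjusted p under 0.05 only Cox6b2, a testis-type complex IV subunit that was not well measured, passed, at -2.90 (p = 0.00222) at 6 h in the authors' deposited table, against 0.799% of all genes at 6 h. None passed at 24 h, against 1.08%.

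In CDK2-dTAG organoids the nuclear members stood near 0 at 6 h and below 0 at 24 h. The nuclear median was -0.01 at 6 h, with 38 of 81 positive, and -0.14 at 24 h, with 3 of 81 positive, in the authors' deposited table. The mitochondrial median was 0.15 with 13 of 13 positive at 6 h and -0.02 with 4 of 13 positive at 24 h. The share of positive values was 65.7% and 36.7% over all genes, and 47.9% and 51.5% over well measured genes. At 6 h mt-Atp6 (0.40) and mt-Nd3 (0.32) had the highest mitochondrial values, and mt-Nd4 and mt-Co1 the lowest, both 0.04. At 24 h the lowest nuclear values were those of the complex I subunits Ndufs5 (-0.30), Ndufb6 (-0.28) and Ndufa13 (-0.25). The highest were Sdhd (0.01) and Ndufs1, an iron-sulphur subunit of complex I (-0.02), with Sdha, the flavin subunit of succinate dehydrogenase, between them in the authors' deposited table. Set against 0% of all genes called at each time, no member passed. Only Sdhd passed an unadjusted p under 0.05 at 6 h, against 0.903% of all genes, and no member did at 24 h, against 1.07%.

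Other nuclear groups for mitochondria and translation stood at about the same place at 24 h in CDK2-dTAG organoids. Mitochondrial ribosomal proteins had a median of -0.13 with 63 of 78 negative, cytosolic ribosomal proteins -0.13 with 83 of 84 negative, and assembly factors of the respiratory complexes -0.13 with 38 of 51 negative, in the authors' deposited table. One-sided shifts of cytosolic ribosomal proteins were not limited to this comparison. With dTAG-13 in WT-dTAG organoids 80 and 81 of 84 were positive at 6 and 24 h (medians 0.07 and 0.12). In CDK5-dTAG organoids at 6 h 83 of 84 were negative (median -0.08). In CDK2-dTAG organoids at 6 h 42 of 84 were negative. Crypt stem markers had a median of 0.34 with 17 of 18 positive in CDK2-dTAG organoids at 24 h, and their part in the nuclear values was not tested. Set against WT-dTAG organoids, the response to dTAG-13 at 24 h was lower for 75 of 81 nuclear members, with a median difference of -0.23, and for 11 of 13 mitochondrial genes, with a median difference of -0.19. The well measured genes of the whole table had a median difference of 0.01. None of the 94 differences was called, with 0% of all genes called and a smallest adjusted p of 0.995. Only Ndufb3, an accessory complex I subunit, reached an unadjusted p under 0.05, at -0.47 (95% interval -0.94 to -0.01), against 1.32% of all genes. At 6 h the median differences were -0.10 for nuclear and -0.08 for mitochondrial members, and again 0 were called, where 0% of all genes were. At that time Sdhd and Cox6b2 passed an unadjusted p under 0.05, against 1.13% of all genes.

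In CDK5-dTAG organoids the genomes lay on opposite sides of 0 at both times, by small amounts. A gap of this direction was not particular to them: the mitochondrial median lay above the nuclear one in all 10 treatment comparisons. It did so by 0.14 and 0.22 at 6 and 24 h here. In the controls the gap was 0.12 and 0.07 in WT-dTAG organoids at 6 and 24 h, and 0.05 and 0.15 in WT-cKO organoids at 24 and 48 h. After 6 h of dTAG-13 the mitochondrial median was 0.07 with 11 of 13 positive and the nuclear median -0.07 with 14 of 81 positive, in the authors' deposited table. After 24 h they were 0.16 with 13 of 13 positive and -0.05 with 28 of 81 positive. Over all genes 35.7% and 37.8% were positive at 6 and 24 h, and over well measured genes 48.9% and 46.8%. mt-Nd3 stood apart at 24 h, at 0.59 (95% interval 0.07 to 1.10, p = 0.0254, FDR p = 1.00) in the authors' deposited table, while the other 12 mitochondrial genes lay between 0.07 and 0.23. Nuclear members spread more widely at 24 h than at 6 h: the lowest were the complex I subunits Ndufs8 (-0.38), Ndufa5 (-0.31) and Ndufa10 (-0.25), and the highest were Sdhd (1.33), Ndufa1 (0.37) and Cox7c (0.35). With 0% of all genes called at either time, no member passed. At an unadjusted p under 0.05, 2 members passed at 24 h, mt-Nd3 and Sdhd, against 1.99% of all genes, and none at 6 h, against 0.952%. Minus the WT-dTAG response, the median difference at 24 h was 0.04 for mitochondrial and -0.16 for nuclear members, at 6 h -0.11 and -0.14. No difference was called at either time, where 0% of all genes were, and Sdhd alone passed an unadjusted p under 0.05 at 24 h, against 2.05% of all genes, and none at 6 h, against 1.06%. These differences share the WT-dTAG libraries with those of CDK2-dTAG.

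In WT-cKO organoids 4-OHT left the mitochondrial genes near 0 and the nuclear members slightly below. In the authors' deposited table the medians at 24 h were 0.00 and -0.05, with 6 of 13 and 14 of 81 positive. At 48 h they were 0.05 and -0.10, with 11 of 13 and 7 of 81 positive. Positive values were held by 42.7% and 39.3% of all genes at these times, and by 45.7% and 47.3% of well measured genes. The mitochondrial genes stood between -0.07 and 0.13 at 24 h and between -0.09 and 0.15 at 48 h. The lowest well measured nuclear members at 48 h were Sdhd (-0.71), Cox7a1 (-0.45) and Ndufa11 (-0.26). Enterocyte markers had medians of -0.18 at 24 h and -0.44 at 48 h, and their part in the nuclear values was not tested. No member was called at either time, against 0.0642% of all genes at 24 h and 0% at 48 h. At an unadjusted p under 0.05, 1 member passed at 24 h, Cox7b2, against 2.98% of all genes, and 1 at 48 h, Cox6a2, against 1.83%.

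In CDK2-cKO organoids the genomes were further apart. The nuclear median was -0.20 after 24 h and -0.17 after 48 h of 4-OHT, with 5 and 2 of 81 positive. The mitochondrial median was 0.02 and 0.11, with 8 and 11 of 13 positive, in the authors' deposited table. Shares of positive values were 39.1% and 37.3% over all genes, and 47.3% and 46.9% over well measured genes. At 24 h Cox7a1 (-0.81), Ndufb8 (-0.43) and the complex III subunit Uqcrq (-0.39) were the lowest, and Sdha and Atp5s (both 0.10) the highest well measured nuclear members. At 48 h Cox7a1 (-0.68), Ndufv3 and the iron-sulphur subunit Sdhb (both -0.29) were the lowest, and Sdhd (0.44) and Atp5s (0.30) the highest. mt-Nd3 had the largest mitochondrial value at 48 h, 0.43 in the authors' deposited table. No member was called, against 0% of all genes at 24 h and 0.0241% at 48 h. At an unadjusted p under 0.05 in the authors' deposited table, 2 members passed at 24 h, Cox7a1 and the complex I subunit Ndufc2 (at -0.36), against 1.3% of all genes, and 2 at 48 h, Cox6a2 and Cox7a1, against 2.21%.

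Beside these values, mitochondrial ribosomal proteins had medians of -0.18 and -0.07 and assembly factors of -0.17 and -0.13 in CDK2-cKO organoids at 24 and 48 h. Cytosolic ribosomal proteins, a nuclear group outside the mitochondrion, had medians of -0.15 with 81 of 84 negative and -0.10 with 83 of 84 negative. Crypt stem markers had medians of 0.26 at both times, and enterocyte markers of -0.16 and -0.37. In bulk samples fewer cells of a type and less RNA per cell cannot be told apart. Minus the WT-cKO response, the median difference of the nuclear members was -0.16 at 24 h with 73 of 81 negative and -0.07 at 48 h with 64 of 81 negative. For the mitochondrial genes it was 0.02 and 0.09. No difference was called at 24 or 48 h, where 0% of all genes were, and none of the 94 reached an unadjusted p under 0.05, against 1.78% and 1.27% of all genes.

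**Figure D3:**
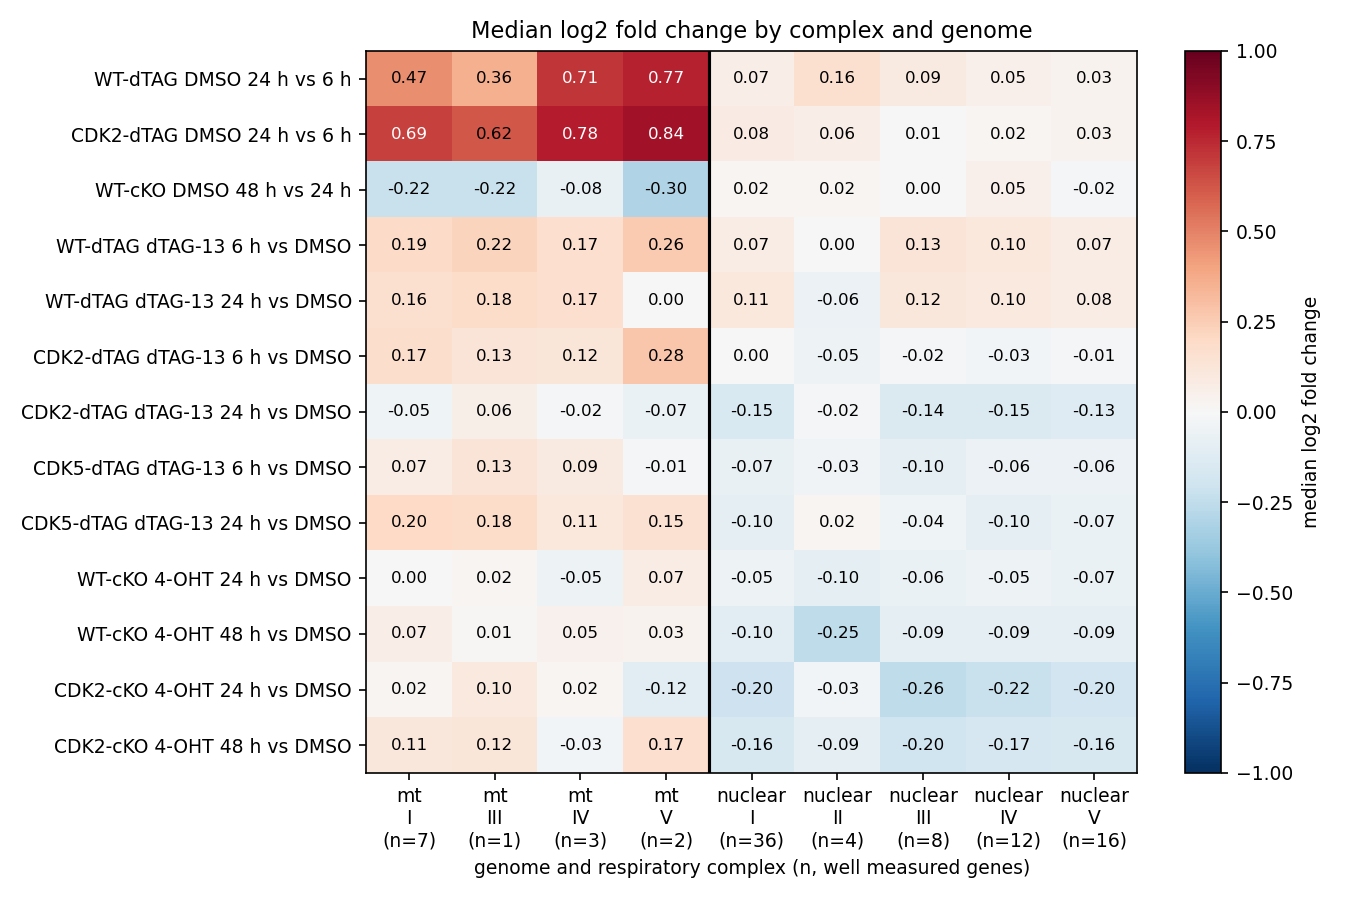
Median deposited log2 fold change of the well measured members of each complex (columns, mitochondrial to the left of the black line and nuclear to the right, n in brackets) in the 13 comparisons (rows), coloured from -1 to 1. The mitochondrial parts of complexes I, III, IV and V lie between 0.36 and 0.84 for 24 h against 6 h of DMSO, while no nuclear column there exceeds 0.16.

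The complexes were also read one by one within each genome. For 24 h against 6 h of DMSO the mitochondrial medians in WT-dTAG organoids were 0.47 for the 7 complex I genes, 0.71 for the 3 of complex IV and 0.77 for the 2 of complex V, with mt-Cytb of complex III at 0.36. In CDK2-dTAG organoids they were 0.69, 0.78 and 0.84, with mt-Cytb at 0.62. The nuclear medians of complexes I, II, III, IV and V in WT-dTAG organoids were 0.07, 0.16, 0.09, 0.05 and 0.03. In CDK2-cKO organoids at 24 h they were -0.20, -0.03, -0.26, -0.22 and -0.20, with complex II, which has no mitochondrially encoded subunit, nearest to 0. Its place was not the same elsewhere: in WT-cKO organoids at 48 h of 4-OHT it was the furthest from 0, at -0.25. Complex II rests on 4 genes, whose values in CDK2-cKO organoids at 24 h ran from -0.29 (Sdhb) to 0.10 (Sdha).

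The nuclear subunits chosen to stand for complexes I, III, IV and V stood near 0 throughout. In the authors' deposited table the flavin subunit of complex I that binds NADH, Ndufv1, ran from -0.22 in WT-cKO organoids at 48 h of 4-OHT to 0.12 in WT-dTAG organoids at 24 h against 6 h of DMSO. Ndufs1 ran from -0.22 to 0.11. The Rieske iron-sulphur protein of complex III, Uqcrfs1, ran from -0.27 to 0.13, and the core subunit Uqcrc1 from -0.27 to 0.26, in the authors' deposited table. Cox4i1 and Cox5a, nuclear subunits around the catalytic core of complex IV, ran from -0.24 to 0.12 and from -0.24 to 0.11. Atp5a1 and Atp5b, the alpha and catalytic beta subunits of the ATP synthase head, kept within -0.16 to 0.09 and -0.19 to 0.07. Set beside them, the mitochondrial partner genes mt-Co1 and mt-Atp6 ran from -0.08 to 1.40 and from -0.18 to 0.95 in the authors' deposited table. None of the nuclear subunits named in this paragraph reached an unadjusted p under 0.05 in any of the 13 comparisons. Other nuclear members did, among them Sdhd of complex II, described next.

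Sdhd encodes a membrane anchor of succinate dehydrogenase and helps to bind its haem and quinone. Among the well measured nuclear members Sdhd had the widest spread and also the largest median implied standard error, 0.42. Its values in the authors' deposited table were 1.33 (95% interval 0.48 to 2.17, p = 0.00201, FDR p = 1.00) in CDK5-dTAG organoids at 24 h of dTAG-13 and 1.08 (0.15 to 2.01, p = 0.0231) in CDK2-dTAG organoids at 6 h. It stood at 0.75 in CDK2-dTAG organoids for 24 h against 6 h of DMSO, which shares the 6 h DMSO libraries with the value of 1.08. Its lowest value was -0.71, in WT-cKO organoids at 48 h of 4-OHT. In the CDK5-dTAG comparison the other subunits of complex II, Sdha (-0.03), Sdhb (-0.18) and Sdhc, the second membrane anchor (0.07), stood near 0 in the authors' deposited table. In the CDK2-dTAG comparison at 6 h they stood at -0.09, -0.06 and -0.03. Against WT-dTAG the difference of Sdhd was 1.57 (95% interval 0.32 to 2.82) for CDK2-dTAG at 6 h and 1.68 (0.49 to 2.86) for CDK5-dTAG at 24 h, neither called after Benjamini-Hochberg adjustment over all genes.

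The tissue-type isoforms of complex IV ranged more widely than their broadly expressed counterparts. Cox6a2 and Cox7a1 are the heart and skeletal muscle forms of subunits whose broad forms are Cox6a1 and Cox7a2. In WT-dTAG organoids Cox6a2 stood at 3.20 (95% interval 1.61 to 4.80, p = 7.86e-05, FDR p = 0.0653) for 24 h against 6 h of DMSO in the authors' deposited table, the nuclear member nearest to a call. In CDK2-dTAG organoids the same step gave 1.29 (0.07 to 2.51). After 48 h of 4-OHT it stood at -1.54 (-2.65 to -0.43) in WT-cKO and -2.02 (-3.10 to -0.93, p = 2.70e-04, FDR p = 0.561) in CDK2-cKO organoids in the authors' deposited table. Cox6a1 stayed between -0.19 and 0.10 in all 13 comparisons. Cox6a2 was not well measured, with a median implied standard error of 0.56.

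Cox7a1 was well measured, and its values did not follow those of Cox6a2 throughout: after 24 h of 4-OHT in CDK2-cKO organoids it stood further below 0 than Cox6a2 (-0.11), and after 6 h of dTAG-13 in WT-dTAG organoids the signs were opposite, 0.42 against -0.62, in the authors' deposited table. In the authors' deposited table it stood at 0.74 (95% interval 0.10 to 1.38, p = 0.0232) in WT-dTAG and 0.54 (-0.14 to 1.22) in CDK2-dTAG organoids for 24 h against 6 h of DMSO. It stood at -0.45 in WT-cKO organoids at 48 h of 4-OHT, and in the authors' deposited table at -0.81 (-1.45 to -0.17, p = 0.0125) and -0.68 (p = 0.0329) in CDK2-cKO organoids at 24 and 48 h. Cox7a2 ran from -0.25 to 0.14 over the 13 comparisons. None of these values was called. CDK2-cKO minus WT-cKO, the difference of Cox7a1 was -0.69 (95% interval -1.59 to 0.21) at 24 h and -0.23 (-1.12 to 0.65) at 48 h, and that of Cox6a2 -0.48 (-2.03 to 1.08) at 48 h. Muscle markers, of which 2 of 8 with values were well measured, had medians of 0.26 and 0.08 for the early time step and their part was not tested.

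**Figure D4:**
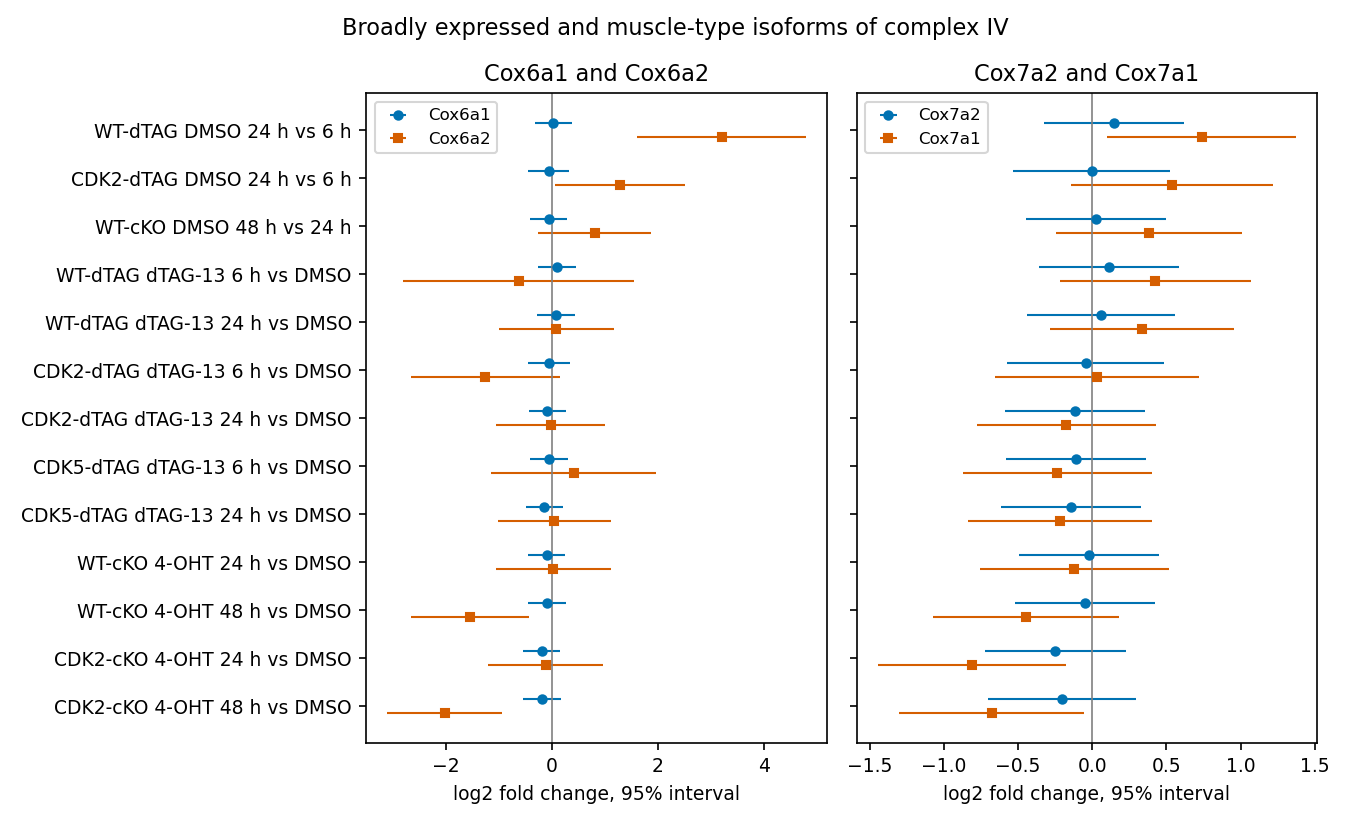
Deposited log2 fold change with its implied 95% interval (x axes) of Cox6a1 and Cox6a2 (left) and Cox7a2 and Cox7a1 (right) in the 13 comparisons (y axis). The broad forms (circles) stay between -0.25 and 0.14, while Cox6a2 (left, squares) ranges from -2.02 to 3.20 and Cox7a1 (right, squares) from -0.81 to 0.74.

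The remaining isoforms were not well measured. Cox7b2, a form known from testis, stood at 3.96 (95% interval 0.71 to 7.20, p = 0.0169) in WT-cKO organoids at 24 h of 4-OHT in the authors' deposited table. In that comparison spermatid markers had a median of 4.95 with 29 of 30 positive and 8 called, where 0.0642% of all genes were called, and their part was not tested. In 5 of 13 comparisons Cox7b2, and in 12 of 13 Cox8b, a muscle form, had the same log2 fold change, within 0.005, as between 5528 and 7827 genes of the table. Their median implied standard errors were 2.92 and 3.35. Ndufa4l2, a hypoxia-responsive relative of Ndufa4, ran from -1.93 to 2.75 with a median implied standard error of 1.74 and no unadjusted p under 0.05.

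The promoters of Cox6a1 and Cox7a1 are shown as 1 broad and 1 muscle-type gene of the pairs above. They are RefSeq sequence on GRCm38.p6, 250 bases before to 50 after the gene start, 5′ to 3′ along the gene. Capitals mark matches to the motifs of NRF1 and GABPA (CCGGAAG, here as its reverse complement), factors known to drive respiratory genes. Cox6a1 lies on the minus strand, chr5:115348909-115349208, and Cox7a1 on the plus strand, chr7:30183921-30184220.
Cox6a1: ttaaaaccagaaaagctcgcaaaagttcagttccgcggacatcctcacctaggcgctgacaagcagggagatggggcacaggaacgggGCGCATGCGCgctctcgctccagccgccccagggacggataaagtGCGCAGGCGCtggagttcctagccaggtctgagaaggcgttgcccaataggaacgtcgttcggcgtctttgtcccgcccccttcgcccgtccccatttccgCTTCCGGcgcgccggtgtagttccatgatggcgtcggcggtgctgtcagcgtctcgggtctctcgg
Cox7a1: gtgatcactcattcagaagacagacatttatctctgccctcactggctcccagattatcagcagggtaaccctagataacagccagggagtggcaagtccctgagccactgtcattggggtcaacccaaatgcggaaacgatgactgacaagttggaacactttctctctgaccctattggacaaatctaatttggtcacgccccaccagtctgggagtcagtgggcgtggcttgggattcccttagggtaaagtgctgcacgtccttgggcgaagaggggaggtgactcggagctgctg
Searching both strands, 17 of the 68 nuclear members with a promoter in the table (25%) held the NRF1 motif, against 5.19% of 27025 genes. The GABPA motif was in 16 (23.5%) against 9.93%, and the YY1 motif AAGATGGCG in 7 (10.3%) against 1.64%. A loose form of the motif of the muscle factor MEF2, with any base allowed in its middle, was in 1 (1.47%) against 4.23%. That share does not describe the stricter MEF2 motif. Sdhd held an NRF1-type and a GABPA-type match. Neither Cox7a2, a broad form, nor Cox7a1 held any of the motifs searched, so the matches did not separate broad from muscle forms in that pair. Such matches describe letters in this window and not binding.

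Genes that serve the chain without being subunits were read from lists chosen with earlier results of these data known, and none of their members was called in any comparison. For 24 h against 6 h of DMSO, the 18 genes of mitochondrial DNA replication and transcription had medians of 0.02 in WT-dTAG and 0.05 in CDK2-dTAG organoids, with no unadjusted p under 0.05. The 20 genes of mitochondrial RNA processing and stability had medians of -0.06 and -0.08. In WT-dTAG organoids 2 of them passed an unadjusted p under 0.05, against 3.28% of all genes, both lower, with Fastkd1, a mitochondrial RNA-binding protein, at -0.70 (p = 0.0206) in the authors' deposited table. The 12 nuclear regulators had medians of 0.05 and -0.14, with 1 unadjusted pass in WT-dTAG, against 3.28% of all genes, and 0 in CDK2-dTAG organoids, against 2.72%. The former was Gabpb1, a subunit of the GABP factor, at 0.53 (p = 0.0221) in WT-dTAG organoids in the authors' deposited table. The 51 assembly factors stood at 0.04 and 0.01. Lyrm7, a complex III assembly factor that chaperones the Rieske protein, had the smallest p in both, at 0.91 (p = 0.0243) and 0.84 (p = 0.0495) in the authors' deposited table.

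In the treatment comparisons single genes of these lists reached an unadjusted p under 0.05, and some with the smallest p of a list are named. Such picks are no result about the lists, and the number that passed is not given here. Of all genes, 1.99% passed in CDK5-dTAG organoids at 24 h and 0.799% in WT-dTAG organoids at 6 h of dTAG-13. In CDK2-cKO organoids at 24 h of 4-OHT 1.3% did. In CDK5-dTAG organoids at 24 h, Rnaseh1, which removes RNA primers from mitochondrial DNA, stood at 1.90 (p = 5.86e-04) and Trmt10c, a subunit of mitochondrial ribonuclease P, at 0.65 (p = 0.00419) in the authors' deposited table. Tfb1m, an rRNA methyltransferase of the mitochondrial ribosome, stood at 0.93 (p = 0.0259) after 6 h and at 0.90 after 24 h of dTAG-13 in WT-dTAG organoids in the authors' deposited table. Electron carriers, the cytochrome c and coenzyme Q genes, had their lowest median, -0.22 with 16 of 18 negative, in CDK2-cKO organoids at 24 h. There Coq3, a methyltransferase of coenzyme Q synthesis, stood at -0.75 (p = 0.00791) in the authors' deposited table.

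Near-identical pseudogenes limit the assignment of tags. At least 1 annotated pseudogene matched a member transcript at 95% identity or more over 100 bases or more for 9 of 13 mitochondrial and 26 of 81 nuclear members, mt-Co1, mt-Nd5 and mt-Atp6 among them, and neither mt-Nd6 nor Sdhd. The copies were not analysed here, and how their tags were assigned is not given in the sources used here.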

How the data were processed

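RNA from 60 organoid samples was measured by 3′ mRNA sequencing. Per the submitters' processing notes Salmon was used; the sources used here do not give its version, nor the build, annotation, normalization or test behind the deposited values. The authors' deposited table holds, for each of 13 comparisons, a fold change and its log2 per gene with 3 kinds of p-value (raw, FDR and Bonferroni), per the file headers. Because missing values are text, a general unit was recorded for every column. The table holds no counts, so the count test planned in the design could not be run, depth and per-sample precision are unknown, and the deposited p-values were used with the threshold of 0.05. No DMSO time comparison of CDK5-dTAG or CDK2-cKO organoids was analysed here.

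Each log2 fold change was given an implied standard error: its absolute value over the z score matching the two-sided p. This assumes a Wald test that the sources do not state. The 95% intervals follow from the implied error. For well measured members this error varied little across comparisons of different genotypes and treatments, for mt-Co3 between 0.196 and 0.219. A deposited p-value therefore does not measure the spread among the samples of its own comparison alone. Differences between genotypes combined the implied errors of both comparisons, with Benjamini-Hochberg adjustment over 24905 genes. The procedure was tested on simulated data. Work was done in Python 3.11.15 with pandas 2.3.3, numpy 2.4.6 and scipy 1.17.1, and figures with matplotlib 3.10.9. Pseudogene copies were sought with BLAST+ 2.17.0 in GENCODE M21 transcripts. Named genes were every mitochondrial member, the 3 highest and 3 lowest well measured nuclear members of a comparison, and members with p under 0.05. Also named were a few subunits chosen for each complex, tissue isoforms, and the smallest p of each other list. Members and lists were chosen with earlier results of these data known. Alternatives covered the adjustment, the threshold, the filter on poorly measured genes, centring, a weighted mean, subsets of members and a t distribution.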

Additional observations from a re-analysis of the deposited data

How the results depend on the processing

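Restricting members to well measured genes lowered the count with an unadjusted p under 0.05 from 1 to 0 in WT-dTAG organoids at 6 h of dTAG-13 and in WT-cKO organoids at 24 and 48 h of 4-OHT, and from 2 to 1 in CDK2-cKO organoids at 48 h, because Cox6b2, Cox7b2 and Cox6a2 are not well measured. Reading the p-values through a t distribution, chosen for this difference after seeing the data, raised the called genotype differences in the DMSO time effect from 0 to 1, mt-Co1. There the t reading shrinks the implied standard errors of mt-Co1 to 0.00266 and 0.00267, from 0.216 and 0.193, by its own construction. With the Bonferroni p of the authors' deposited table mt-Atp6 lost its call in both genotypes (p = 0.149 and 0.350). Adjusting over well measured genes alone added mt-Nd6 in WT-dTAG organoids, giving 4 called members in place of 3, and an FDR p under 0.10 added the nuclear Cox6a2 there; in CDK2-dTAG organoids both gave the same 4 genes. The medians of both genomes moved by less than the members' median implied standard error under each alternative run. That is an error of single genes and a wide yardstick for a median. Without mt-Nd6, mt-Atp8 and mt-Nd4l a mitochondrial median moved by up to 0.16, downward for 24 h against 6 h of DMSO in WT-dTAG organoids. A weighted mean moved it by up to 0.11, and leaving out members with a near-identical pseudogene by up to 0.09. Nuclear medians moved by up to 0.02. The members' median implied standard error is as large as or larger than most treatment medians, so a median near 0 could change sign within it. The nuclear median in CDK2-dTAG organoids at 6 h of dTAG-13 became 0.004 when centred on well measured genes. The mitochondrial median in WT-cKO organoids at 24 h of 4-OHT became 0.013 when centred and 0.004 as a weighted mean. Without members that have a near-identical pseudogene it was 0.009. Each of these was below 0 as deposited. No paired analysis was possible because no per-sample values were analysed here, and for the same reason leaving out replicates and the replicate block were not run. Errors rest on the assumed Wald test and on the samples that entered it, 3 a group by the labels. They were larger in the CDK2-dTAG comparisons that use the 6 h DMSO samples, for mt-Co3 0.219 against 0.196 to 0.207 elsewhere. How many samples entered each test is not given in the sources used here. Single genes whose change lies within an implied standard error could not be resolved, and larger changes could go uncalled.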
